A study of Rattus norvegicus with 6 samples.

Results

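The 11 probes of the rat miRNA microarray whose names carry the stems miR-451, miR-144, miR-486, miR-223, miR-142 and miR-150 were examined in the hearts of control rats and of rats with chronic colitis. All arms present on the array were taken by name, the set having been proposed with earlier results of these data known, and they make up 11 of its 761 rat miRNA probes. Array names carry the prefix rno-, as in rno-miR-451-5p, rno-miR-486 and rno-miR-150-5p, which is left out below. Of these 11, 5 were detected on at least 3 of the 6 arrays and could be compared, among 282 miRNAs of the whole array that met the same condition. Cardiac RNA of 3 control and 3 DSS adult Sprague Dawley rats, which per the study's methods were male and bought at 6 weeks of age, was measured on 1 array per heart, in 1 color (Cy5). The DSS rats drank 3% dextran sodium sulfate, an agent that injures the colon, for 5 days per cycle over 4 cycles, each followed by 9 days of plain water, and were studied at 8 weeks. The other rats carry the treatment label control. The arrays are named here by animal number, so that the controls are 9, 10 and 11 and the DSS hearts 13, 14 and 16. The labels name heart tissue and no sorting of cells, so RNA of blood cells in the tissue and of heart muscle was measured together.

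These miRNAs are best known from blood. The miR-144 and miR-451 hairpins are transcribed together under the erythroid factor GATA1, and miR-451 is the dominant miRNA of mature red cells. It is unusual in that its short hairpin is cut by Argonaute 2 and not by Dicer, so that its mature strand runs around the loop. miR-223 is a miRNA of neutrophils, monocytes and platelets, miR-142 is made in nearly all blood lineages, and miR-150 is a miRNA of mature lymphocytes. miR-486 lies in an intron of Ank1, the gene of ankyrin 1, a membrane-skeleton protein with an erythroid and a muscle form, and is known both from red cells and from heart and skeletal muscle.

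The mature sequences of the members on which the results turn are shown first because each probe reads 1 arm, and because arms of the same hairpin gave very different signals. The capitals mark the seed, bases 2 to 8 from the 5′ end, through which a miRNA pairs with its targets. The first 3 are the erythroid arms, the next 4 are leukocyte arms, and the last is miR-486.
miR-451-5p: aAACCGUUaccauuacugaguu
miR-144-5p: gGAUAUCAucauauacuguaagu
miR-144-3p: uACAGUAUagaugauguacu
miR-223-3p: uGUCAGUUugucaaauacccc
miR-142-3p: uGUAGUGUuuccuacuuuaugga
miR-142-5p: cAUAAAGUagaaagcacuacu
miR-150-5p: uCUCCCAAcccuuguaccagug
miR-486: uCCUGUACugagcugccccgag

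None of the 11 seeds was shared with any other rat probe of the array. The nearest other probe differed from each member by 7 to 9 single-base edits, and the effect of such distant probes on the signals was not tested. For 8 of the 11 probes a mature sequence was held in the RefSeq table (GRCr8), and all 8 were identical to the array's target. The sequences of miR-486 and of both miR-150 arms were those given with the array.

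In GRCr8 the Mir144 hairpin lies at chr10:63459397-63459479 and the Mir451a hairpin at chr10:63459569-63459640, both on the plus strand, with 89 bases between them. Mir142 lies elsewhere on the same chromosome, at chr10:73055104-73055190. Mir223 lies at chrX:65151383-65151492 and Mir150 at chr1:104741487-104741571. The Mir451a hairpin is shown because both of its arms were on the array. The capitals mark the mature miR-451-5p, bases 17 to 38 of 72, which covers the 5′ side of the stem and runs into the other side.
Mir451a hairpin: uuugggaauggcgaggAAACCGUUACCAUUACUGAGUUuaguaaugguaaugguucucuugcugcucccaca

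The blood-cell miRNAs did not move as a block. The erythroid miR-451-5p and miR-144-5p and the myeloid miR-223-3p were lower in the DSS hearts, whereas the lymphocyte miRNA miR-150-5p and miR-486 were higher. Of the 5 compared, 3 were called lower and 2 higher (limma, adjusted p under 0.05). Over all 282 miRNAs compared, 49.3% were called, 28.4% lower and 20.9% higher, so a call alone does not set a member apart from the array. The groups did not overlap for any of the 5, against 66.3% of all miRNAs compared, with 34.8% of all lying entirely below the controls in DSS hearts and 31.6% entirely above. The size of the change did set 2 of them near the ends of the array, since miR-451-5p was number 4 from the lowest change and miR-486 number 11 from the highest. In whole-heart RNA, fewer cells of a type and less of a miRNA per cell cannot be told apart.

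**Figure D1:**
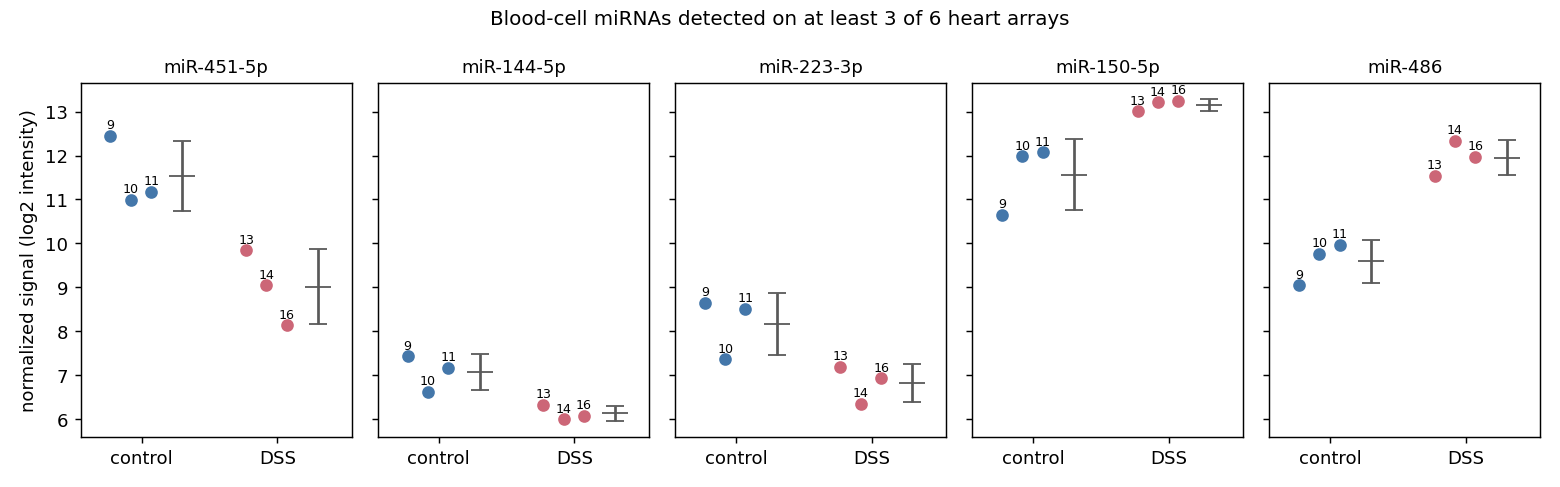
Normalized signal (log2 intensity, vertical axis) of the 5 members compared, for each control and DSS array. Points are arrays with their animal numbers, and the bar beside them is the group mean ± SD (n = 3). No DSS point lies among the control points in any panel, with miR-451-5p, miR-144-5p and miR-223-3p below them and miR-150-5p and miR-486 above.

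Among the erythroid members, miR-451-5p was the one detected on all arrays. Its normalized log2 signal was 12.45, 10.99 and 11.17 in the control hearts 9, 10 and 11, and 9.84, 9.05 and 8.13 in the DSS hearts 13, 14 and 16. Control 9 was the highest and DSS 16 the lowest, and the lowest control lay above the highest DSS heart. The group means were 11.54 ± 0.80 and 9.01 ± 0.85 (SD, n = 3 each). The change was -2.53 (SE 0.54, 95% confidence interval -3.82 to -1.24, limma adjusted p = 0.0161), a signal 5.78-fold lower in DSS hearts. On the authors' processed linear scale the same probe read 6326, 2302 and 2473 in control and 888, 320 and 209 in DSS hearts, again without overlap.

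The arms of miR-144, which comes from the same transcript as miR-451, were dim. miR-144-5p, the passenger arm of its hairpin, was detected on 2 control arrays and 1 DSS array and thus only just entered the comparison. It read 7.43, 6.62 and 7.17 in control and 6.32, 5.998 and 6.08 in DSS hearts on the normalized log2 scale. All 3 DSS values lay below the controls, but control 10 and DSS 14 and 16 were not detected, and on DSS 13 only 2 of the 4 spots passed and the mean of all 4 lay at 0.92 of the limit. The means were 7.08 ± 0.41 and 6.13 ± 0.17 (SD, n = 3 each). The change was -0.94 (SE 0.25, 95% confidence interval -1.54 to -0.35, limma adjusted p = 0.0224). No fold is given, because with a DSS signal this close to background the size depends on the offset added to keep dim values positive. An offset of 16 in place of 50 gave -1.51 and plain background subtraction -3.90.

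miR-144-3p, the guide arm, was detected on no array. Its mean spot brightness above background was 14.01, 6.52 and 9.02 in control and 2.63, 8.29 and 0.43 in DSS hearts, where the detection limits of the same arrays were 20.01, 58.6 and 43.9 and 20.3, 59.3 and 52.4. miR-451-3p, the opposite side of the Mir451a hairpin, was likewise detected on no array, with a mean spot brightness above background between 1.60 and 8.49. No difference between groups could be measured for either arm at this signal. The hairpin shown above thus had a bright 5p probe and a 3p probe below the limit.

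miR-223-3p, the myeloid member, was detected on 3 control arrays and on the DSS arrays 13 and 16. It read 8.65, 7.36 and 8.51 in control and 7.19, 6.35 and 6.93 in DSS hearts. The gap between groups was narrow, with control 10 only a little above DSS 13, and on the authors' processed scale these 2 hearts changed places, at 79 and 88. The means were 8.17 ± 0.71 and 6.82 ± 0.43 (SD, n = 3 each). The change was -1.35 (SE 0.40, 95% confidence interval -2.30 to -0.40, limma adjusted p = 0.0299). On DSS 16 only 2 of the 4 spots passed, and the mean of all 4 lay at 0.96 of the limit. DSS 14 lay at 0.57 of its limit and control 10 at 1.11. The size again depended on the offset, at -1.63 with an offset of 16 and -1.94 with plain background subtraction, so no fold is given. The 5p arm, miR-223-5p, was detected on no array.

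miR-150-5p, the lymphocyte member, moved the other way. It read 10.65, 11.98 and 12.08 in control and 13.005, 13.21 and 13.24 in DSS hearts. The DSS hearts lay close together and control 9 stood apart from the other controls. The means were 11.57 ± 0.80 and 13.15 ± 0.13 (SD, n = 3 each), and the change was 1.59 (SE 0.39, 95% confidence interval 0.65 to 2.52, limma adjusted p = 0.0201), or 3.00-fold higher. Without control 9 the change was 0.64 and no longer passed (limma adjusted p = 0.102), so much of its size came from that heart.

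The other arm, miR-150-3p, was detected on DSS 13 alone. Its mean spot brightness above background was 5.95, 26.3 and 9.94 in control and 21.7, 43.99 and 53.0 in DSS hearts, and on DSS 16 a single spot of the 4 passed the limit. With 1 detected array, no fold is given.

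miR-142, the general blood-lineage miRNA, was near the limit in both arms. miR-142-3p was detected on control 9 alone, with a mean spot brightness above background of 28.9, 6.99 and 26.7 in control and 1.07, 0.04 and -4.43 in DSS hearts. miR-142-5p was detected on control 9 alone as well, at 46.4, 19.4 and 29.3 in control and 14.4, 17.3 and 2.16 in DSS hearts. The DSS readings of both arms were the lowest, but no DSS array was above its limit. With 1 detected array out of 6, no fold is given for either arm.

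**Figure D2:**
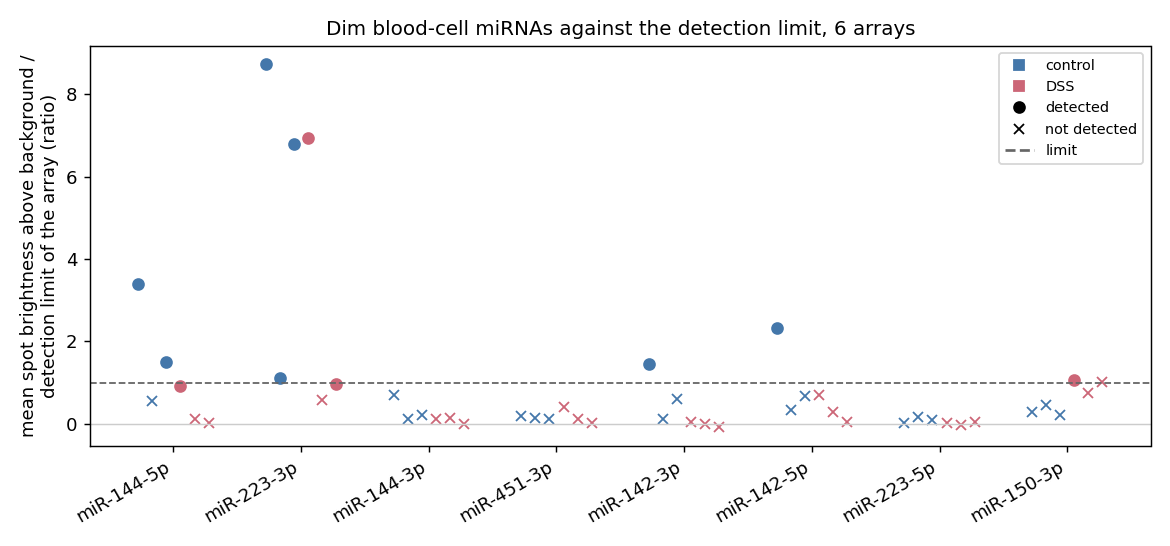
Mean spot brightness above background divided by the detection limit of the same array (ratio, vertical axis), for miR-144-5p, miR-223-3p and the 6 members that were not compared. Blue is control and red is DSS, circles are arrays on which the probe was detected (at least 2 of 4 spots passing) and crosses arrays on which it was not, with arrays in the order 9, 10, 11, 13, 14, 16. miR-144-3p, miR-451-3p and miR-223-5p have no circle, and the circles of miR-142-3p and miR-142-5p belong to control 9.

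miR-486 showed the largest rise among the members. It read 9.05, 9.77 and 9.97 in control and 11.53, 12.34 and 11.98 in DSS hearts, with every DSS heart more than 1 log2 unit above every control. The means were 9.59 ± 0.48 and 11.95 ± 0.40 (SD, n = 3 each), and the change was 2.36 (SE 0.32, 95% confidence interval 1.60 to 3.12, limma adjusted p = 0.0151), or 5.12-fold higher. On the authors' processed scale it read 561, 897 and 980 in control and 3438, 3684 and 4116 in DSS hearts. The array has 1 probe for it and does not tell an erythroid from a muscle source.

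The opposite movement of the 2 miRNAs known from red cells was examined within each array, where 1 scaling factor for the whole array cancels. The values were taken after cyclic LOWESS, whose correction varies with brightness and does not cancel, so changes without normalization are given too. The difference of miR-486 minus miR-451-5p was -3.41, -1.23 and -1.20 log2 units in control and 1.69, 3.29 and 3.84 in DSS hearts. Its zero has no meaning, because each probe has its own brightness, but the groups were apart, and the difference rose by 4.89. In the 2-sided exact permutation test of the 20 arrangements of 6 arrays this gave p = 0.1, the smallest that the design allows, and 0.3 after Benjamini-Hochberg adjustment over the 3 pairs tested. Without any normalization the rise was 4.84.

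miR-486 was set beside miR-1-3p, the principal miRNA of heart muscle, in the same way. The difference of miR-486 minus miR-1-3p was -2.81, -1.74 and -2.24 in control and -2.05, -3.58 and -3.43 in DSS hearts. The groups overlapped, and the change of -0.76 gave p = 0.3 in the exact permutation test (adjusted p = 0.3), so no difference between the rises of miR-486 and miR-1-3p was detected. The change was -0.45 without normalization, -0.14 with quantile normalization, -1.05 with the authors' processed values and -1.25 without DSS 13. The last 2 gave p = 0.1 (exact permutation), the smallest possible. With 3 arrays per group, overlap does not show that miR-486 and miR-1-3p rose alike. The study reported no significant change of this muscle miRNA by RT-qPCR, a separate assay, so its rise is a result of the arrays alone.

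The erythroid and myeloid decreases were compared as miR-451-5p minus miR-223-3p, which was 3.80, 3.63 and 2.66 in control and 2.65, 2.70 and 1.20 in DSS hearts. The groups overlapped, and the change of -1.18 gave p = 0.2 (exact permutation, adjusted p = 0.3). Without normalization it was -1.88 and the groups were apart, at p = 0.1 (exact permutation, the smallest possible). The same p was reached with quantile normalization (-1.70), with the authors' processed values (-1.38) and without control 11 (-1.59), and without DSS 16 the change was -0.71. The 3 other pairs that had been planned could not be formed because an arm of miR-144 or miR-142 was too dim. A pair chosen after the values were seen, miR-150-5p minus miR-223-3p, was 1.99, 4.62 and 3.57 in control and 5.81, 6.86 and 6.31 in DSS hearts, and is given without a test. Another such pair, miR-451-5p minus miR-144-5p, was 5.02, 4.37 and 4.00 in control and 3.52, 3.05 and 2.05 in DSS hearts, with the dim miR-144-5p held up by the offset.

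**Figure D3:**
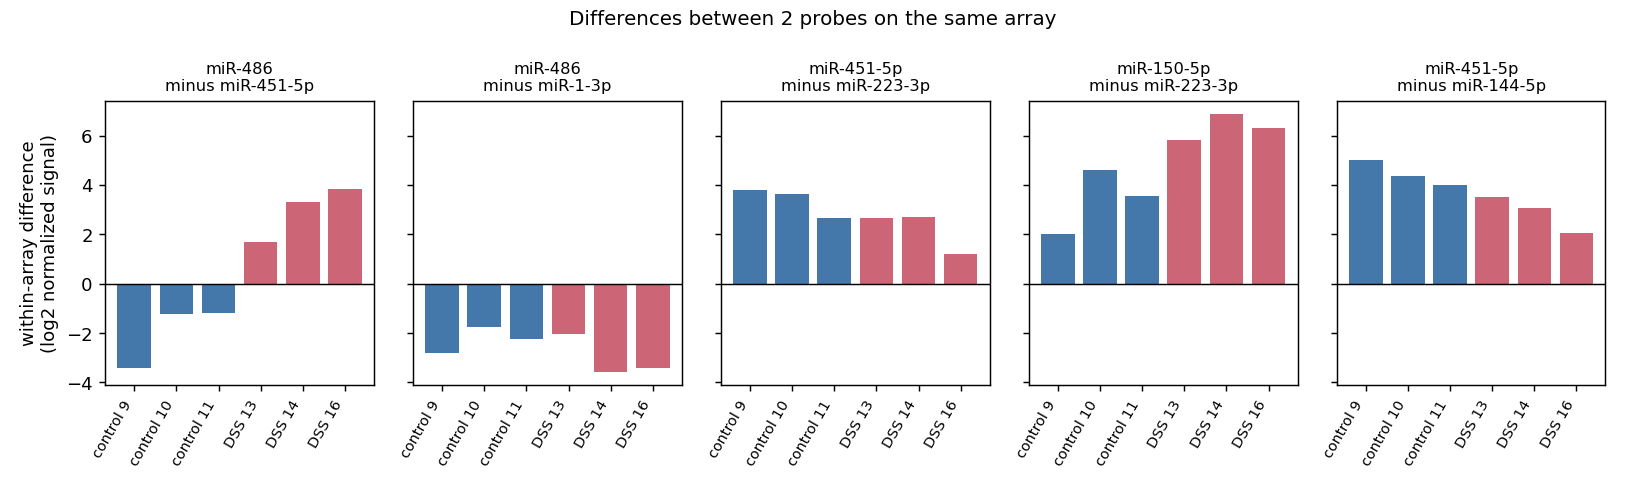
Within-array difference (log2 normalized signal, vertical axis) of 5 pairs of probes, 1 bar per array, with control in blue and DSS in red. Only the change of the bars between arrays can be read, since the zero depends on the brightness of each probe. The bars of miR-486 minus miR-451-5p run from -3.41 to -1.20 in control and from 1.69 to 3.84 in DSS hearts.

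The members differed among themselves in how far they depended on the scaling of the arrays. The decrease of miR-451-5p lay between -2.80 and -1.83 and the rise of miR-486 between 2.03 and 3.00 over 6 scalings, and both were called under each. The rise of miR-150-5p lay between 1.08 and 2.05 and was called under 5 of the 6, missing the threshold without normalization (limma adjusted p = 0.0848). By contrast, scaling to the spike-in control probes turned the change of miR-144-5p to 0.13 (limma adjusted p = 0.838) and that of miR-223-3p to 0.05 (limma adjusted p = 0.941). Scaling to the 5S rRNA probes left them at -0.23 and -0.31, neither called. miR-144-5p was also not called with scaling to the 75th percentile (limma adjusted p = 0.0795), which leaves 3 of the 6 scalings in which it was called. miR-223-3p was not called with the 75th percentile either (limma adjusted p = 0.0593), nor without normalization, where it changed by -0.73 (limma adjusted p = 0.174), and was thus called under 2 of the 6.

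These 2 scalings shifted the whole array. Before normalization the spike-in probes read 0.78 log2 units lower and the 5S rRNA probes 0.42 lower on the DSS than on the control arrays. The median change of all 282 miRNAs was 0.36 without normalization and -0.06 with cyclic LOWESS. Scaling to the spike-in and the 5S rRNA probes raised it from 0.36 to 1.14 and 0.78. Without normalization 81 miRNAs were called higher and 38 lower. Scaled to the spike-in probes, 52.5% of all miRNAs compared were called higher and 4.26% lower. Scaled to the 5S rRNA probes, 45.7% were called higher and 4.96% lower. Relative to the median of all miRNAs, miR-223-3p was at -1.29 with cyclic LOWESS and -1.09 with the spike-in probes, and miR-144-5p at -0.88 and -1.01. Relative to the spiked RNA neither had a direction that could be told from 0, with 95% confidence intervals of -0.78 to 1.04 for miR-144-5p and -0.86 to 0.96 for miR-223-3p.

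**Figure D4:**
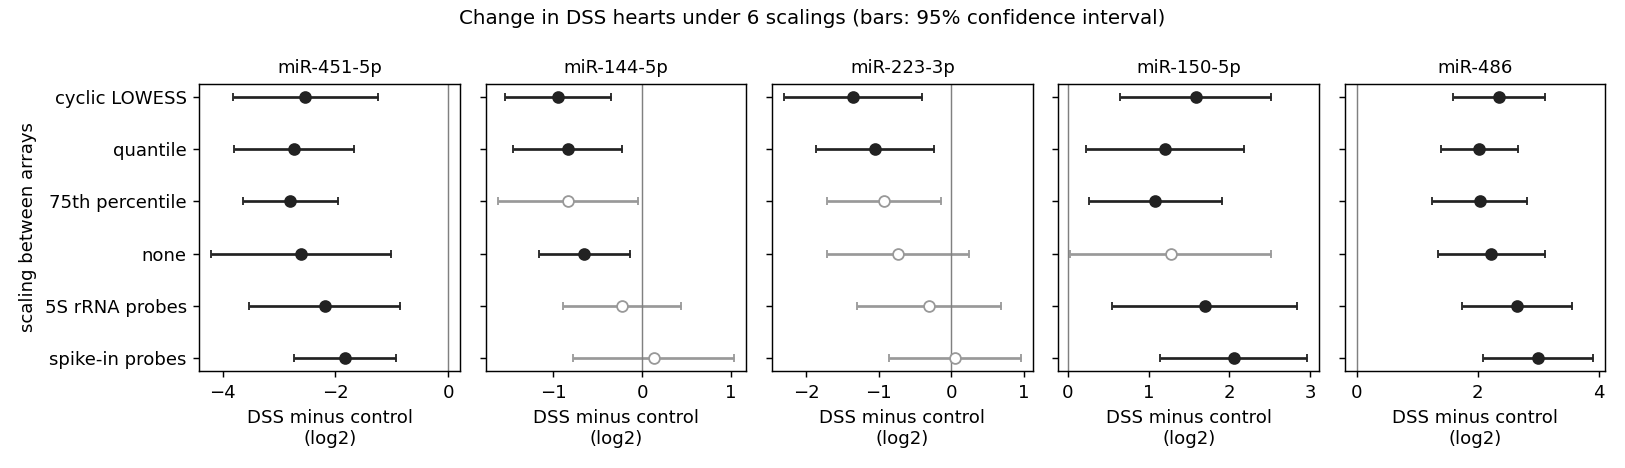
DSS minus control (log2, horizontal axis) of the 5 members compared under 6 scalings between arrays, with 95% confidence intervals. Filled points passed the threshold in limma (adjusted p under 0.05) and open points did not. miR-451-5p stays below 0 and miR-486 above 0 throughout, whereas miR-144-5p and miR-223-3p reach 0.13 and 0.05 with the spike-in probes.

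The same hearts stood at the ends of their group for each of the 5 members compared. Control 9 had the highest control signal of miR-451-5p, miR-223-3p and miR-144-5p and the lowest of miR-150-5p and miR-486. It differed from the mean of the other controls by 1.37, 0.72, 0.54, -1.38 and -0.82 log2 units, in that order. DSS 13 was the DSS heart nearest to the controls for each of the 5. This order was not particular to the members. Control 9 and DSS 13 stood the same way for miR-29c-3p, miR-16-5p and miR-30a-5p, which fell, and let-7g-5p, which rose. For let-7f-5p, control 9 lay between the other controls. The share of all miRNAs with this order was not counted. Control 9 also had the only detected signals of miR-142, but its detection limit was the lowest of the controls (20.01 against 58.6 and 43.9). Above background, miR-142-3p was nearly as bright on control 11 (26.7) as on control 9 (28.9). The source of the order of these hearts was not tested.

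Leaving out 1 array at a time, with the others normalized anew, turned no direction. Without control 10 or DSS 13 all 5 members kept their calls. miR-451-5p ranged from -2.85 to -2.05 and miR-486 from 1.83 to 2.72, and both lost their calls without DSS 16, each at a limma adjusted p of 0.0608. Without DSS 16 no miRNA of the array was called in limma, while all 5 members kept an unadjusted p under 0.05. miR-144-5p and miR-223-3p lost their calls without control 9, control 11, DSS 14 or DSS 16, and miR-150-5p without control 9, DSS 14 or DSS 16.

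Other miRNAs of the same cell types were read beside the members. Of 7 further miRNAs abundant in red cells, 6 were compared, none was called higher and 3 were called lower, beside 20.9% and 28.4% of all miRNAs compared, with a median change of -0.68 against -0.06. miR-106b-5p changed by -1.68 (limma adjusted p = 0.0161) and miR-16-5p by -1.58 (limma adjusted p = 0.0180). Both are also made in many other cells. The list was not uniform, since miR-92a-3p changed by 1.11 (limma adjusted p = 0.0501) and miR-15b-5p by 0.78 (limma adjusted p = 0.121), both with every DSS heart above every control. miR-363-3p, the one not compared, was detected on 1 array.

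Of 6 further miRNAs of immune cells, all were compared, 2 were called higher and 1 lower, with a median change of 0.34, again beside 20.9% and 28.4% of the array. miR-146a-5p, which is induced in inflammation, rose by 1.42 (limma adjusted p = 0.0213). The other one called higher, miR-155-5p, was detected on 3 arrays and rose by 0.65 (limma adjusted p = 0.0476). For this miRNA the study also reported a rise by RT-qPCR, a separate assay. On the arrays it read 6.32, 6.19 and 6.19 in control and 6.60, 7.29 and 6.77 in DSS hearts. The control signal was thus no brighter than that of miR-144-3p, detected on no array, whose control mean was 6.23. With a control signal this close to background, no fold is given, and the effect of the offset on this rise was not tested. miR-146b-5p changed by 0.03 (limma adjusted p = 0.889). miR-21-5p changed by 0.78, within the spread of the controls (limma adjusted p = 0.427). In the other direction, miR-342-3p changed by -0.48 (limma adjusted p = 0.0440) and miR-181a-5p by -0.30 (limma adjusted p = 0.236). The 2 endothelial arms, miR-126a-3p and miR-126a-5p, changed by -1.28 (limma adjusted p = 0.0229) and -1.21 (limma adjusted p = 0.237).

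The labelled tissue was checked against 7 muscle miRNAs, of which 5 were detected on all 6 arrays, whereas miR-208a-3p was detected on 1 and miR-208b-3p on none. Of those 5, 2 were called higher and 1 lower, with a median change of -0.34, where 20.9% and 28.4% of all miRNAs compared were called. miR-1-3p rose by 3.11 (limma adjusted p = 0.0151), and miR-499-5p, which lies in a myosin gene, fell by 2.09 (limma adjusted p = 0.0213). Muscle, red-cell and immune miRNAs therefore each held members that differed in direction or in call, and the part of these cell types in the changes of the 5 members was not tested. For the muscle miRNAs called higher here, the study reported no significant change by RT-qPCR, a separate assay. The rise of these 2 is thus a result of the arrays alone. For miR-1b, a separate probe that was not on this list, the study did report a rise by RT-qPCR. On the arrays miR-1b rose by 3.05 (limma adjusted p = 0.0151).

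For each member compared, the 2 miRNAs with the most similar course over the 6 arrays were found by the root mean square of the difference after each was centred on its own mean. miR-451-5p was nearest to miR-148a-3p (0.299 log2 units) and miR-30e-5p (0.359), where its median distance to all was 1.42. miR-486 was nearest to let-7d-3p (0.108) and miR-196c-3p (0.280), with a median distance of 1.29. miR-150-5p was nearest to miR-26b-5p (0.194) and let-7g-5p (0.206), with a median of 1.02. miR-223-3p was nearest to both arms of miR-29a, at 0.229 for the 5p and 0.253 for the 3p arm, with a median of 0.839. The dim miR-144-5p was nearest to miR-1949 (0.0628) and miR-30c-5p (0.0936), with a median of 0.594. None of these neighbours was another blood-cell member. The measure uses 6 arrays of 2 groups, so it mostly reflects the change between groups.

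The sequences shown above also differ in base composition. G and C bases made up 63.6% of miR-486 and 54.5% of miR-150-5p, the members that rose, and 42.9% of miR-223-3p, 36.4% of miR-451-5p and 30.4% of miR-144-5p, the members that fell. Over the whole array this order was not seen. The median was 43.5% for all miRNAs called higher, 45.5% for those called lower and 47.8% for all compared. Across the 282 miRNAs, which share the same 6 arrays, the change and the base composition had a Spearman rho of 0.107 and a Pearson r of 0.0602, given as a description.

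**Figure D5:**
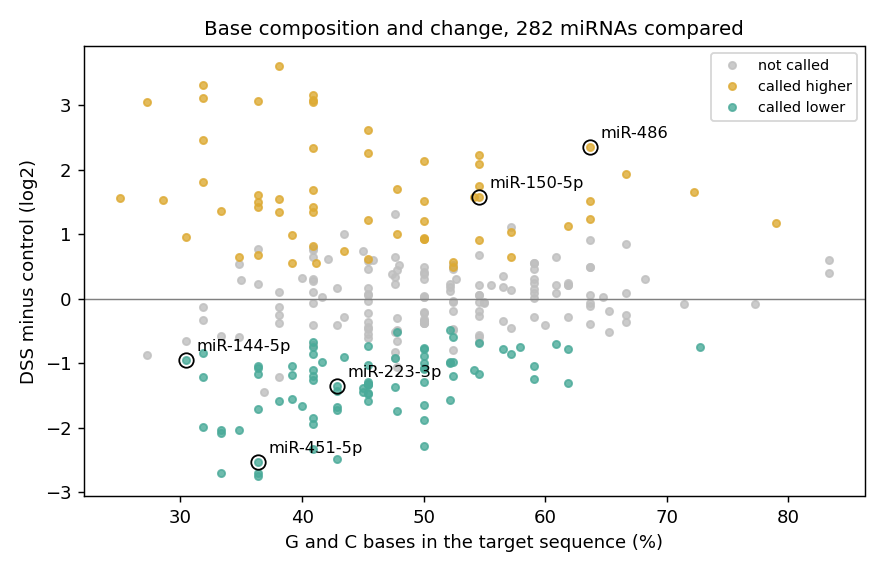
DSS minus control (log2, vertical axis) against the share of G and C bases in the array's target sequence (percent, horizontal axis) for the 282 miRNAs compared. Gold points were called higher, green points lower and gray points not called, and circles mark the 5 members. The members run from 30.4% to 63.6%, gold points from 25% to 78.9% and green points from 30.4% to 72.7%.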

How the data were processed

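Heart RNA was hybridized on 6 arrays, grouped by the sample labels. The authors deposited, for each array, scanner intensity values (median and pixel SD of each spot, linear, background included) and 1 table of processed linear intensity values, made by background subtraction and a LOWESS filter. How repeated spots were combined there is not given in the sources used here.

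The scanner values were corrected with normexp (offset 50) in limma 3.58.1 (R 4.3.3). The mean log2 value over the 4 spots of each probe was normalized by cyclic LOWESS (span 0.7, 3 iterations). A spot passed when it lay over 3 SD of the empty spots above background with a CV under 0.5. A probe was detected when 2 of 4 spots passed, and compared when detected on 3 of 6 arrays. Background was set at the median over the 25% of miRNA spots that were dimmest on an array. The offset makes changes of dim probes smaller. Groups were compared with limma, with Benjamini-Hochberg adjustment over all 282 miRNAs and a threshold of 0.05. Figures used matplotlib 3.10.9 under Python 3.11.15.

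Arrays have no counts, and their number, 3 per group, limits the precision. The p-values measure only the spread between these arrays. The files name no slide, scan or batch. The members and lists were chosen with earlier results of these data known. Every member was named, with the 2 largest changes of each further list. From the immune list miR-155-5p and miR-146b-5p were named as well, outside that rule. Another 4 list members (miR-92a-3p, miR-15b-5p, miR-342-3p and miR-181a-5p) were added after their values were seen. The alternatives covered background, scaling, detection, test and each array left out. With an array left out, the others were normalized anew. Scaling to the perfect-match spike-in probes was added after the data were seen. The fit was tested on simulated data.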

Additional observations from a re-analysis of the deposited data

How the results depend on the processing

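No paired analysis was possible because each rat has its own number and no number occurs in both groups. Of the members, 2 were called higher and 3 lower. The number called higher was 1 without normalization, 1 with all 761 probes tested and 0 with the methods' t-test, and 0 to 2 with 1 array left out. The number called lower was 1 with 75th percentile, spike-in or 5S rRNA scaling, 1 with the perfect-match spike-in scaling chosen after seeing the data, 1 when detection on all 6 arrays was required (which leaves out miR-144-5p and miR-223-3p), 0 with all probes tested, 0 with the methods' t-test, and 0 to 3 with 1 array left out. Whole-array calls fell too, to 0 of 282 with the methods' t-test after adjustment, under which all 5 members had an unadjusted p under 0.05, and to 74 of 761 with all probes tested. With 1 array left out they ranged from 0 to 147, beside 139 with all 6 arrays. miR-144-5p turned to 0.13 with the spike-in and 0.18 with the perfect-match spike-in scaling, and miR-223-3p to 0.048 and 0.097. The cause was not tested. miR-144-5p was not compared with a detection limit of 5 SD, or with 3 SD added to the median of the empty spots. miR-451-5p kept its direction in all 23 alternatives (-3.09 to -1.78) and its call in 20, and miR-486 in all 23 (1.83 to 3.05) with its call in 21. miR-150-5p kept its direction in all 23 (0.64 to 2.10) and its call in 17. The 3 within-array pairs kept their direction in the 12 alternatives run for each, from 4.04 to 5.50 for miR-486 minus miR-451-5p, from -1.25 to -0.14 for miR-486 minus miR-1-3p and from -1.88 to -0.71 for miR-451-5p minus miR-223-3p. Detection limits of 20.01 to 59.3 above background set what could be seen of miR-142, miR-144-3p, miR-150-3p, miR-223-5p and miR-451-3p.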
